A study of Mus musculus with 12 samples.

Results

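The genes described here encode the core machinery that builds iron-sulfur clusters in mitochondria. They are Nfs1, Lyrm4, Iscu, Hscb, Glrx5, Isca1, Isca2 and Nfu1. A probe set was taken as a member where the platform annotation gave it a single gene symbol and that symbol was 1 of these 8. All 8 genes were found, with 12 of the 45037 probe sets tested: 3 for Nfs1, 2 each for Isca1 and Nfu1, and 1 for each of the others. Probe sets were matched by gene symbol. Each gene is described by its brightest probe set over the 12 arrays, and the other probe sets are given beside it.

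Iron-sulfur clusters are small inorganic cofactors that carry electrons in the respiratory chain and serve in enzymes of the mitochondrion, cytosol and nucleus. The cysteine desulfurase Nfs1, held stable by its partner Lyrm4 (ISD11), draws sulfur from cysteine, and the cluster is put together on the scaffold Iscu. The co-chaperone Hscb and the mitochondrial Hsp70 protein Hspa9 then move the cluster on to the monothiol glutaredoxin Glrx5. Isca1, Isca2 and Nfu1 act late, in making the larger clusters and handing them to proteins such as lipoate synthase.

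The series measured RNA in mouse embryonic fibroblasts labelled TSC2-/- in every group, controls included; Tsc2 encodes part of the complex that restrains the kinase mTOR. There were 12 Affymetrix arrays in 4 groups of 3, called biological triplicates in the series design. In the drug experiment cells received DMSO vehicle or 20 nM rapamycin, an mTOR inhibitor, for 14 h. In the virus experiment confluent cells were infected for 10 h with adenovirus expressing GFP or PGC-1alpha, a coactivator known for raising mitochondrial genes, and were harvested 14 h after the medium was changed. Per its title, the study asked how mTOR acts through the YY1/PGC-1alpha complex on mitochondrial genes. Whether the arrays of a group came from separate cultures is stated no further, and the p-values measure the spread between these arrays.

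Array medians lay between 77.5 and 81.0 intensity units, and log2 values of replicate arrays had correlations of at least 0.997. Ppargc1a, the gene for PGC-1alpha, rose 26.8-fold on the PGC-1alpha arrays, from a mean intensity of 87.8 to 2344. The Tsc2 probe set averaged 262 with vehicle, 198 with rapamycin, 225 with GFP and 242 with PGC-1alpha, above the array medians, and fell by 0.40 on the log2 scale with rapamycin (adjusted p = 0.00079). No wild-type array was analysed here, and whether this probe set lies in the deleted stretch is not given in the labels, so it does not check the genotype. All 8 fibroblast markers were measured, with summed intensities of 46028 or more on every array; 3 of them rose with rapamycin and 0 passed with PGC-1alpha. The 19 measured markers of macrophages, endothelium, epithelium, muscle and fat cells summed to between 2455 and 2567 with vehicle and between 2725 and 2798 with rapamycin, without overlap. No marker was at 0, but neither was any value on the arrays (lowest 9.30). By type, the epithelium sum was 1170 to 1238 with vehicle and 1419 to 1475 with rapamycin, and the macrophage sum 358 to 394 and 401 to 413. The muscle sum was lower with rapamycin, at 437 to 466 against 469 to 515. Endothelium and fat sums overlapped. Of these 19 markers 3 rose and 1 fell with rapamycin, led by the keratin Krt18 at 0.56 on the log2 scale (SE 0.06, adjusted p = 1.1e-05). Over all genes 11.3% rose and 18.0% fell with rapamycin. With PGC-1alpha 0 of the 19 passed, where 2.01% of all genes did. For the Gapdh control, the 3' signal divided by the 5' signal was 0.807 to 0.826 with rapamycin and 0.840 to 0.861 with vehicle, and 0.894 to 0.905 with PGC-1alpha against 0.865 to 0.879 with GFP. The part of these differences in the results below was not tested.

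The promoter windows of Glrx5 and Lyrm4, both of which fell with rapamycin, are shown over the 250 bases before each gene's start. They are RefSeq sequences on GRCm38.p6, where 6 of the 8 genes had a window; Iscu and Hscb had none in the table. Capitals mark CCAAT on either strand. The Glrx5 stretch lies at chr12:105032368-105032617 on the + strand and the Lyrm4 stretch at chr13:36117358-36117607 on the - strand, each written 5′ to 3′ along its gene.
Glrx5: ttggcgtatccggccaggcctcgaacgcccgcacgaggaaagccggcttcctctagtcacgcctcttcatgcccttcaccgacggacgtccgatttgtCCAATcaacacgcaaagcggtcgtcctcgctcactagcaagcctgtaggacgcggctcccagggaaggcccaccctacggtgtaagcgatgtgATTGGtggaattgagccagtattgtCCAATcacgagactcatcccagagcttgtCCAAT
Lyrm4: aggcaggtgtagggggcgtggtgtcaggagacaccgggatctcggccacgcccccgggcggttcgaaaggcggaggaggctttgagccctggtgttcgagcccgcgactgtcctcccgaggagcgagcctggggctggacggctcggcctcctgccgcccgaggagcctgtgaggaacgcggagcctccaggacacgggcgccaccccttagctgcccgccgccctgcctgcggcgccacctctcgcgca
The 2 promoters differ in this element, which was chosen after the sequences were seen. The Glrx5 window holds 4 copies and the Lyrm4 window holds none. Of the 6 windows, 4 held the element, with 2 copies each for Isca1 and Isca2 and 1 copy for Nfu1. The number 4 was also taken from the Glrx5 window after its copies were seen. It was reached by 1.06% of the 32851 windows of 300 bases. At least 1 copy stood in 37.4% of all windows.

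Motifs of factors tied to PGC-1alpha were searched on both strands of the same 300-base windows. The YY1 motif AAGATGGCG stood in the Isca2 window, 29 to 37 bases after the start, and in 1.40% of all windows. A second form of the YY1 motif, GCCATNTT, overlaps it there on the other strand and stood in 6.05% of all windows. The palindromic motif of NRF1, a regulator of respiratory genes, stood in 4.60% of all windows. It lay 18 to 9 bases before the start of Isca1, on the strand opposite to the one printed, and 41 to 50 bases after that of Nfu1. TNAAGGTCA, bound by estrogen-related receptors, stood in 1.28% of all windows and in none of the 6. The matched stretches are shown with the motif in capitals, from chr12:84773283-84773312 (+) for Isca2, chr13:59769790-59769817 (-) for Isca1 and chr6:87009856-87009885 (+) for Nfu1.
Isca2: cggagcttgcggagtAAGATGGCGgcctcc
Isca1: ggggcctgtgGCGCCTGCGCaggagctt
Nfu1: gacaagaaggaggcgggtccGCGCAAGCGC
These matches are descriptions of letters and do not show binding.

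With rapamycin the machinery did not move as one. The scaffold gene Iscu and the co-chaperone gene Hscb rose, the glutaredoxin gene Glrx5 and the Nfs1 partner gene Lyrm4 fell, and the other 4 genes did not pass the test. Thus 2 of 8 genes rose and 2 fell, where 11.3% of all 18193 genes rose and 18.0% fell by the same rule, a limma adjusted p under 0.05. Both directions together gave 4 of 8, beside 29.3% of all genes. That share counts dim genes too, whereas all 8 genes lay above the array medians. With probe sets at or below the median brightness left out, 4245 of those kept rose and 5995 fell, against 5168 and 6301 of all 45037. A larger share was thus called among bright probe sets than among all. No excess of the 8 genes is read from 4 of 8. The median log2 change of the 8 genes was -0.11, against -0.01 over all genes. In bulk RNA, fewer cells of a type and less RNA per cell cannot be told apart.

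**Figure D1:**
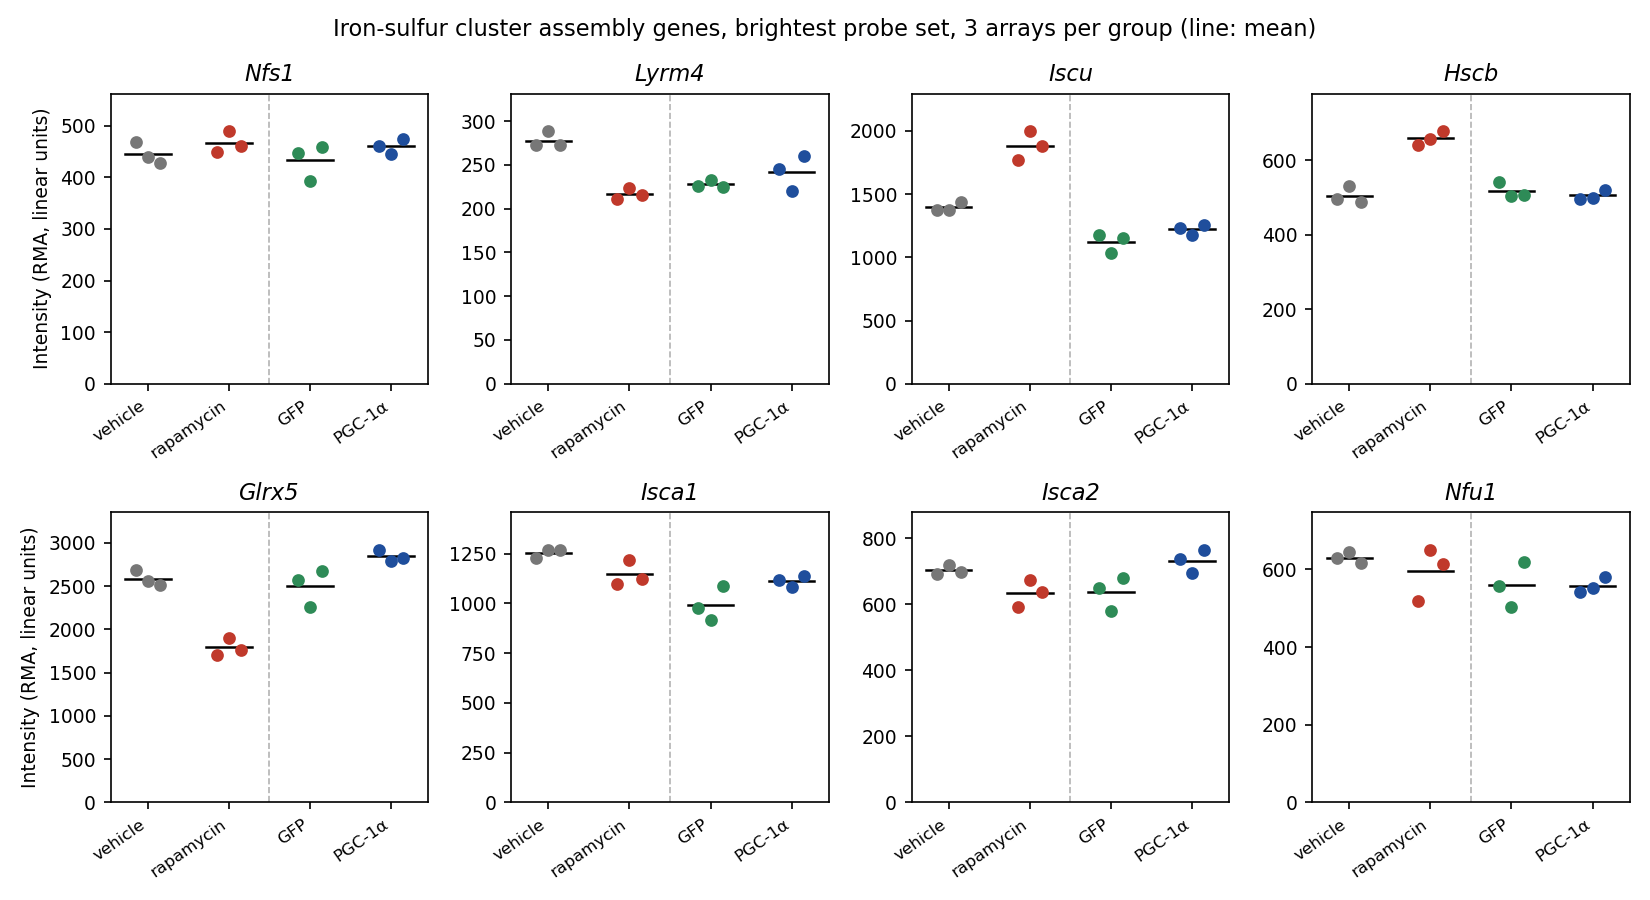
Intensity of the brightest probe set of each of the 8 genes on the 12 arrays (y axis, linear RMA units from 0; points are arrays, black lines are means of 3 arrays). The dashed line parts the 2 experiments, which were normalized separately; rapamycin points lie above vehicle for Iscu and Hscb and below vehicle for Glrx5, Lyrm4, Isca1 and Isca2.

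Of the sulfur-donor pair, Lyrm4 fell and Nfs1 did not pass. The Lyrm4 probe set (1455588_at) read 272.2, 288.3 and 272.2 on the vehicle arrays and 210.8, 223.9 and 215.2 on the rapamycin arrays. Every rapamycin array lay below every vehicle array. The log2 change was -0.36 (SE 0.05, adjusted p = 0.00026, n = 3 arrays per group), a 1.28-fold fall. Nfs1, the desulfurase that Lyrm4 supports, read 467.6, 438.7 and 427.5 with vehicle and 449.2, 489.0 and 460.2 with rapamycin on its brightest probe set (1416373_at). The Nfs1 groups overlapped, and the log2 change of 0.07 had a 95% interval from -0.06 to 0.19 (adjusted p = 0.47). Both other Nfs1 probe sets were near 0 as well, at 0.01 with intervals from -0.10 to 0.13 (1431431_a_at) and from -0.13 to 0.14 (1442017_at). The last of these was dim, at 52.3 to 69.4 on all 12 arrays, below the array medians.

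Iscu, the scaffold on which the cluster forms, showed the largest rise of the 8 genes. Its probe set (1452579_at) read 1375.4, 1374.9 and 1436.0 with vehicle and 1767.5, 1997.1 and 1882.1 with rapamycin, so that the lowest rapamycin array stood well above the highest vehicle array. The log2 change was 0.43 (SE 0.06, adjusted p = 0.00011), a 1.35-fold rise.

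The genes that act in handing the cluster on went opposite ways. Hscb (1427927_at), the co-chaperone that docks on Iscu, read 496.4, 531.7 and 488.0 with vehicle and 641.9, 658.0 and 677.8 with rapamycin. These groups did not overlap, and the log2 change was 0.38 (SE 0.06, adjusted p = 0.00018), a 1.31-fold rise. Glrx5 (1428553_at), the glutaredoxin that takes the cluster after the chaperones, read 2683.6, 2560.0 and 2515.1 with vehicle and 1708.2, 1903.0 and 1760.7 with rapamycin. Each rapamycin array was below each vehicle array by a wide margin. The change of -0.53 on the log2 scale (SE 0.06, adjusted p = 1.9e-05), a 1.45-fold fall, was the largest of the 8 genes.

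Among the late-acting genes no change passed the test. Isca2 (1424154_a_at) read 691.5, 719.8 and 698.2 with vehicle and 592.0, 674.3 and 637.9 with rapamycin, and its partner Isca1 (1423651_at) read 1228.0, 1269.4 and 1267.8 with vehicle and 1097.7, 1216.2 and 1124.8 with rapamycin. For both genes all rapamycin arrays lay below all vehicle arrays. Such a gap downward held for 4 of the 8 genes and 24.6% of all genes, and a gap upward for 2 of the 8 and 17.5% of all genes. The log2 changes were -0.15 for Isca2 (95% interval -0.28 to -0.02, adjusted p = 0.089) and -0.13 for Isca1 (-0.26 to -0.01, adjusted p = 0.12), and the second Isca1 probe set (1423652_at) gave -0.12. Without rapamycin replicate 2 both passed, Isca2 at -0.19 (adjusted p = 0.030) and Isca1 at -0.18 (adjusted p = 0.035), and 4 genes then fell in place of 2, while the probe sets lowered over the whole array went from 6301 to 6691. Over their 14 alternatives the adjusted p ran from 0.0024 to 0.37 for Isca2 and from 0.0038 to 0.51 for Isca1. Nfu1 (1418228_at), which delivers clusters to enzymes such as lipoate synthase, read 628.3, 645.5 and 616.6 with vehicle and 519.5, 650.5 and 615.3 with rapamycin. Replicate 1 alone was well below the vehicle range, and the log2 change of -0.09 had an interval from -0.25 to 0.07 (adjusted p = 0.46). The second Nfu1 probe set (1418229_s_at) gave -0.05.

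**Figure D2:**
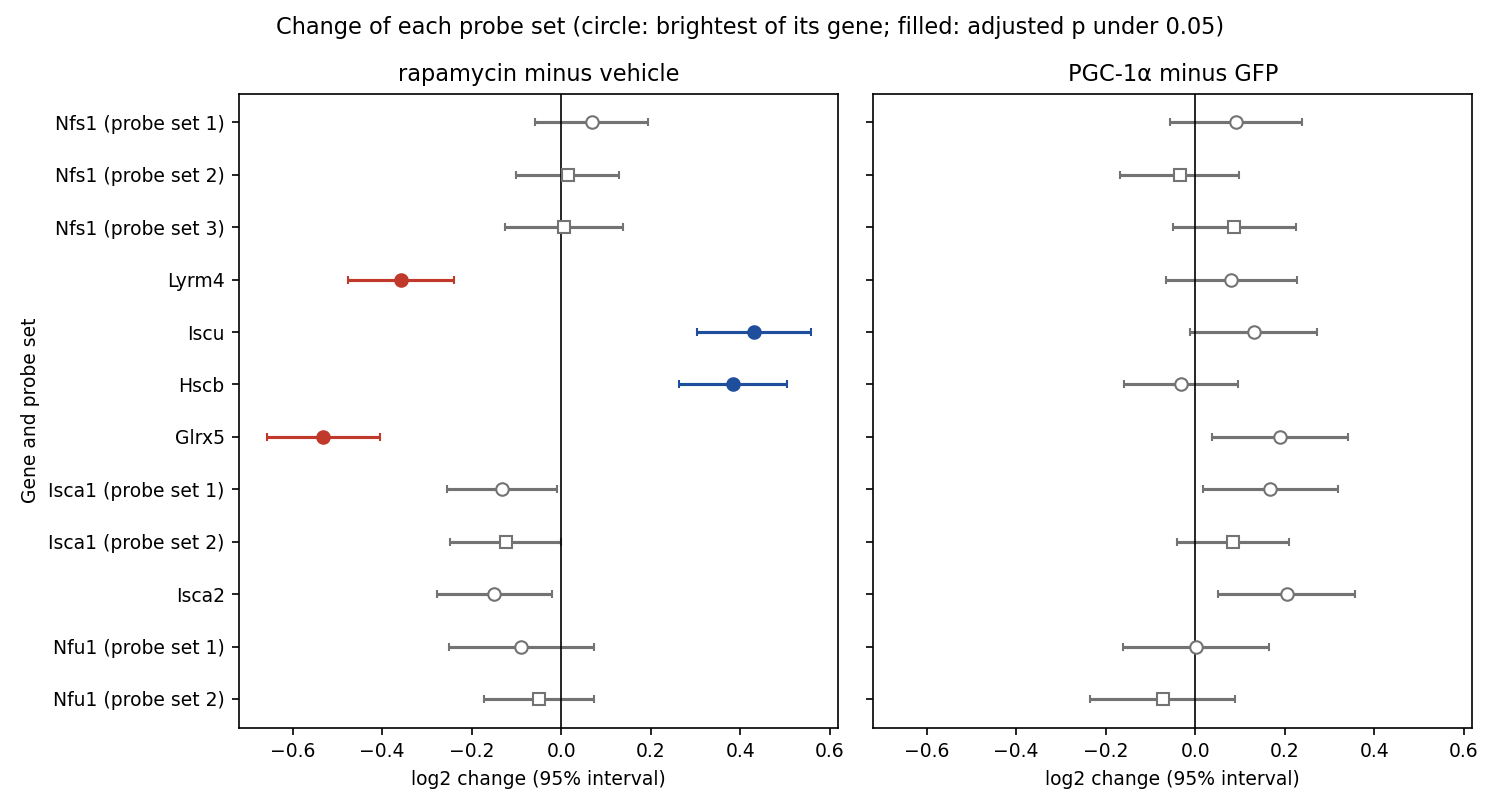
The log2 change of each of the 12 probe sets (x axis, with limma's 95% interval) in the rapamycin comparison (left) and the PGC-1alpha comparison (right), with circles for the brightest probe set of a gene and squares for the others. Filled symbols passed an adjusted p of 0.05: Iscu and Hscb above 0, Glrx5 and Lyrm4 below it, and 0 probe sets on the right.

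The arrays of a group shared part of their deviation across these genes. Rapamycin replicate 1 was the lowest array of its group for all 8 genes and replicate 2 the highest for 7 of them. Among the GFP arrays, replicate 2 was the lowest for 7 genes and replicate 3 the highest for 5. PGC-1alpha replicate 3 was the highest of its group for 7 genes. The genes are therefore not independent readings of a treatment.

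The call for Hscb and the calls for the genes near 0 depended on the scaling. Bacterial spike controls were brighter on the rapamycin arrays (mean log2 10.62 to 10.83) than on the vehicle arrays (10.50 to 10.60). Scaling on them lowered every rapamycin change by 0.19 on the log2 scale. Glrx5 at -0.72, Lyrm4 at -0.55 and Iscu at 0.24 (adjusted p = 0.024) still passed. Hscb at 0.20 did not (adjusted p = 0.067, against 3.0e-05 to 0.067 over its 14 alternatives). Isca1 at -0.32, Isca2 at -0.34 and Nfu1 at -0.28 fell under that scaling, and Nfs1 turned to -0.12 without passing. Over the whole array 18556 probe sets fell and 1448 rose under that scaling, against 6301 and 5168 before, so the added falls among the 8 genes came with a general shift. The spread between the members, from Glrx5 to Iscu, is not altered by a scaling that moves all genes alike.

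**Figure D3:**
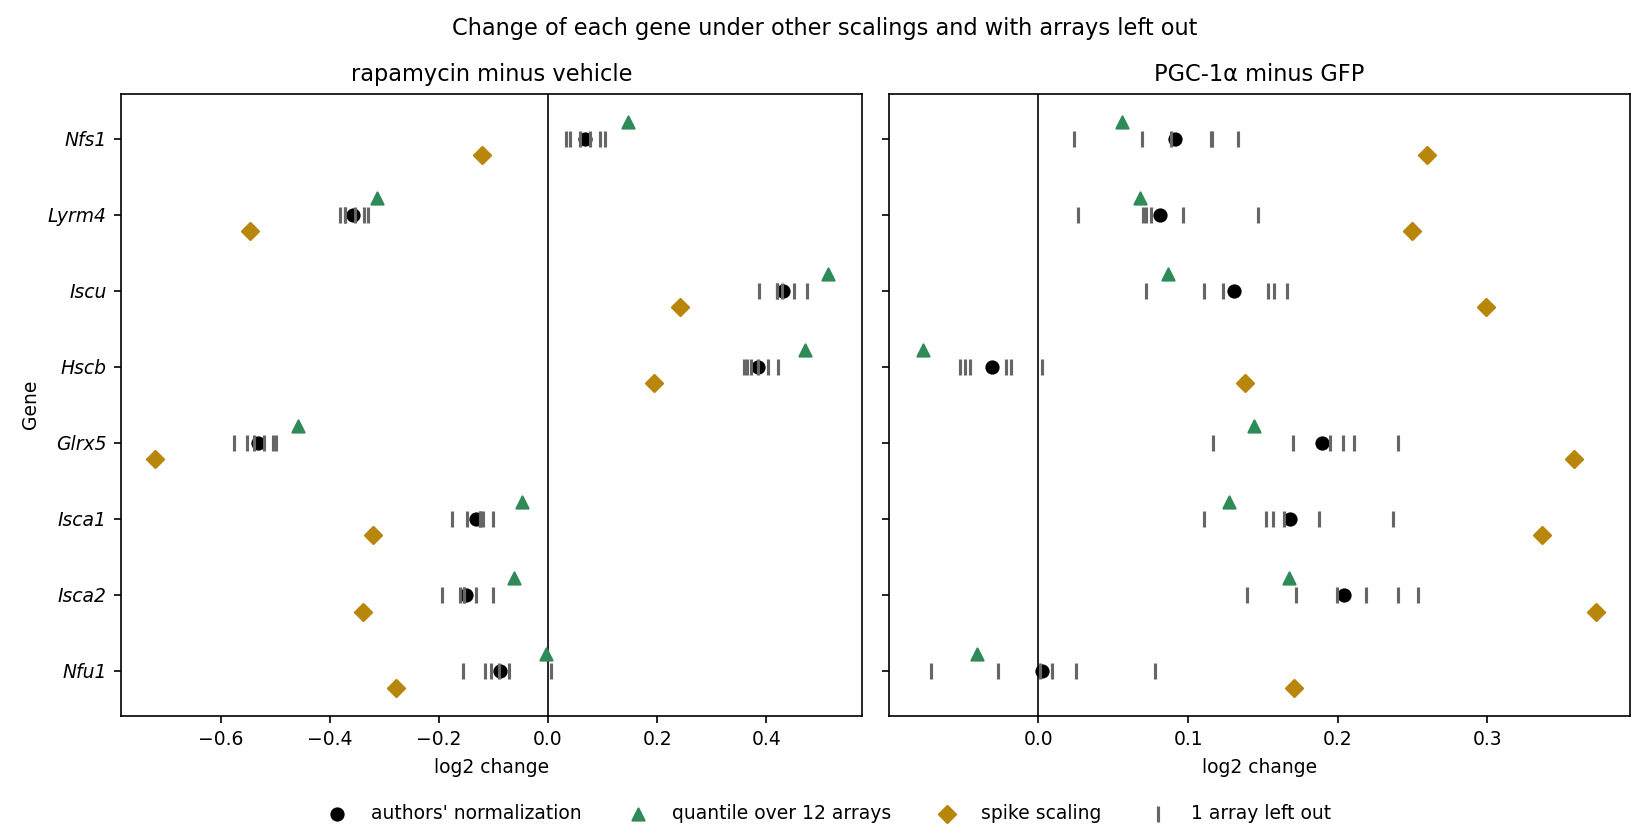
The log2 change of each gene (x axis) under the authors' normalization (circles), quantile normalization over all 12 arrays (triangles), scaling on spike controls (diamonds) and with 1 array left out (ticks), for rapamycin (left) and PGC-1alpha (right; the axes differ). Glrx5 and Lyrm4 stay below 0 and Iscu and Hscb above 0 on the left under every setting drawn, while Nfs1 and Nfu1 lie on both sides.

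With PGC-1alpha none of the 8 genes passed the test. By limma 0 rose and 0 fell, where 1.41% of all genes rose and 0.594% fell (2.01% together); 3 of the 8 had an unadjusted p under 0.05, against 2217 of all 18193 genes. The changes were small, with 7 of the 8 above 0, where 9728 of all 18193 genes were. Their median log2 change was 0.11, against 0.01 over all genes. On the PGC-1alpha arrays 3 genes lay wholly above GFP, where 10.1% of all genes did so, and 0 lay wholly below, where 5.72% did.

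Those 3 genes were Isca2, Glrx5 and Iscu. Isca2 read 648.9, 581.0 and 680.9 with GFP and 736.9, 695.9 and 765.0 with PGC-1alpha. Its log2 change of 0.20 was the largest of the 8 (95% interval 0.05 to 0.36, adjusted p = 0.22). Glrx5 read 2569.2, 2255.1 and 2676.6 with GFP and 2920.4, 2789.0 and 2822.4 with PGC-1alpha, a log2 change of 0.19 (interval 0.04 to 0.34, adjusted p = 0.27). For Iscu the GFP arrays read 1174.8, 1030.8 and 1154.7 and the PGC-1alpha arrays 1236.1, 1179.0 and 1258.2. The gap between the Iscu groups was narrow, and its change of 0.13 had an interval from -0.01 to 0.27 (adjusted p = 0.49).

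Isca1 had a larger change than Iscu but overlapping groups on its brightest probe set, with 975.4, 915.2 and 1089.4 on the GFP arrays and 1119.2, 1083.3 and 1137.7 on the PGC-1alpha arrays. GFP replicate 3 overlapped the PGC-1alpha arrays, and the log2 change was 0.17 (interval 0.02 to 0.32, adjusted p = 0.35). The second probe set changed by 0.08 (adjusted p = 0.68). Its groups did not overlap, at 468.0, 435.5 and 470.7 with GFP and 481.7, 486.6 and 487.5 with PGC-1alpha. Without GFP replicate 3, Isca1 at 0.24 (adjusted p = 0.033) and Isca2 at 0.25 (adjusted p = 0.045) passed, so that 2 of the 8 genes rose. Over the whole array the probe sets raised went from 449 to 1957 without that array. Over the 14 alternatives the adjusted p ran from 0.033 to 0.73 for Isca1 and from 0.045 to 0.61 for Isca2. The remaining genes overlapped between groups. Nfs1 read 393.4 to 458.2 with GFP and 445.0 to 474.0 with PGC-1alpha (log2 change 0.09, interval -0.06 to 0.24), and Lyrm4 225.2 to 233.0 and 220.3 to 260.2 (0.08, interval -0.07 to 0.23). Hscb read 503.7 to 540.9 with GFP and 497.1 to 521.2 with PGC-1alpha, at -0.03 (interval -0.16 to 0.10). Nfu1 read 502.5 to 618.5 and 540.6 to 581.1, at 0.00 (interval -0.16 to 0.17) on its brightest probe set and -0.07 on the other.

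The 2 treatments were then set against each other by the difference of their log2 changes, PGC-1alpha minus rapamycin, in a limma fit over all 12 arrays. Each change was taken within its own batch, and the 2 comparisons share no arrays. For 4 genes the PGC-1alpha change was the higher, and for 2 it was the lower, where the difference passed upward for 16.5% and downward for 7.59% of all genes (24.1% together). It was largest for Glrx5, at 0.72 (SE 0.09, adjusted p = 1.3e-05), followed by Lyrm4 at 0.44 (SE 0.09, adjusted p = 0.00097). Isca2 at 0.35 (adjusted p = 0.0098) and Isca1 at 0.30 (adjusted p = 0.022) also passed, although neither change had passed in its own comparison. Hscb at -0.41 (SE 0.08, adjusted p = 0.00068) and Iscu at -0.30 (adjusted p = 0.020) differed the other way. Nfs1 at 0.02 (interval -0.17 to 0.21) and Nfu1 at 0.09 (interval -0.14 to 0.33) did not pass. The call for Isca1 was lost under 5 of 17 alternatives: with quantile normalization over 12 arrays (0.18, adjusted p = 0.058) and without GFP replicate 2 (0.24, adjusted p = 0.068), PGC-1alpha replicate 3 (0.28, 0.056), rapamycin replicate 1 (0.27, 0.061) or rapamycin replicate 3 (0.29, 0.054). That for Iscu was lost without GFP replicate 1 (-0.26, adjusted p = 0.059), PGC-1alpha replicate 2 (-0.27, 0.057) or rapamycin replicate 2 (-0.26, 0.053). Over the 17 alternatives the adjusted p ran from 0.0013 to 0.068 for Isca1 and from 0.00042 to 0.75 for Iscu. Spike scaling, which moved all differences up by 0.36, ended both negative calls: Hscb was then at -0.06 and Iscu at 0.06. Nfu1 then passed at 0.45 (adjusted p = 0.030).

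Glrx5 had the largest rapamycin change of the 8, and the genes with the most similar profile were found by the mean absolute difference of log2 values over the 12 arrays, each centred on its own control group. The nearest of all genes was Eif3b, a subunit of a translation initiation factor, with a mean difference of 0.020. Mrps7, a protein of the small mitochondrial ribosomal subunit (0.024), and the replication fork protein Timeless (0.025) followed. Their rapamycin changes were -0.56, -0.54 and -0.53 and their PGC-1alpha changes 0.17, 0.17 and 0.14. None of the PGC-1alpha changes passed by limma (adjusted p = 0.24, 0.39 and 0.49). Since these genes were picked for likeness over the same arrays, changes close to those of Glrx5 follow from the choice.

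Related genes were taken from lists chosen by function, with earlier results of these data known. Of 18 other genes of the mitochondrial pathway 14 were measured. With rapamycin 7 of the 14 fell and 1 rose, with a median of -0.19. Hspa9, the chaperone that works with Hscb, fell on all 5 of its probe sets. The brightest averaged 2574 with vehicle and 1731 with rapamycin, a log2 change of -0.57 (SE 0.06, adjusted p = 2.2e-05). The mitochondrial iron importer Slc25a28 fell by 0.45 and the sulfhydryl oxidase Gfer by 0.39, while Sdhaf4, an assembly factor of succinate dehydrogenase, rose by 0.41. With PGC-1alpha 1 of the 14 passed, the late-acting factor Bola3, which rose by 0.42 (SE 0.07, adjusted p = 0.010) from 601 to 801. Bola3 had fallen by 0.29 with rapamycin (adjusted p = 0.0019), from 608 to 499, and in both comparisons 1 of its 3 probe sets passed.

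The cytosolic assembly system, which depends on the mitochondrial one, had 10 of 11 genes measured. With rapamycin 4 fell and 0 rose. Nubp2 at -0.54 and Nubp1 at -0.41, which form its scaffold, and Ciapin1 at -0.47, which passes electrons to it, fell on 2 of 2, 3 of 3 and 3 of 4 probe sets. Bola2 fell by 0.16. With PGC-1alpha 0 of the 10 passed by limma, and 0 had an unadjusted p under 0.05; Glrx3 at -0.12 (adjusted p = 0.50) and Ciao3 at 0.12 (adjusted p = 0.63) had the smallest p-values.

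Proteins that carry the clusters were measured for 30 of 33 genes listed. With rapamycin 14 fell and 2 rose (median -0.16). The largest changes were in the DNA nuclease and helicase Dna2 (-0.91), the helicase Brip1 (-0.68, dim at mean intensities of 52.0 and 32.4), the purine synthesis enzyme Ppat (-0.65) and the aldehyde oxidase Aox1 (0.60). With PGC-1alpha 4 rose and 0 fell. These were the flavoprotein dehydrogenase Etfdh (0.45, on 1 of 2 probe sets), the Rieske protein Uqcrfs1 (0.44), the succinate dehydrogenase subunit Sdhb (0.35) and the complex I subunit Ndufv2 (0.34, on 1 of 3 probe sets). Uqcrfs1 went from a mean intensity of 1778 with GFP to 2410 with PGC-1alpha (SE 0.07, adjusted p = 0.0062), and with rapamycin it fell by 0.21 (adjusted p = 0.012).

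Lipoic acid synthesis needs clusters delivered by Nfu1, and the 6 genes listed for lipoyl transfer and lipoyl proteins were all measured. With rapamycin 5 fell and 0 rose (median -0.30): Dbt of the branched-chain complex at -0.80, the glycine cleavage protein Gcsh at -0.47, Dlat of pyruvate dehydrogenase at -0.31 and Dlst of oxoglutarate dehydrogenase at -0.29, with Lipt2 the fifth. With PGC-1alpha 1 rose, Dlat, at 0.37 (SE 0.08, adjusted p = 0.044) on 1 of its 3 probe sets. Over the 60 distinct genes of the 4 lists 30 fell and 3 rose with rapamycin, beside the 18.0% and 11.3% of all genes given above. Those shares count dim genes too, and the lists were chosen with earlier results of these data known. No excess of the lists over all genes is therefore read from these counts. In the PGC-1alpha comparison 6 rose and 0 fell, beside the 1.41% and 0.594% of all genes. That count of 6 moved with single arrays: it was 18 without GFP replicate 3 and 1 without GFP replicate 1, GFP replicate 2, PGC-1alpha replicate 1 or PGC-1alpha replicate 3. The probe sets raised over the whole array moved with it, from 449 to 1957 without GFP replicate 3 and to between 113 and 122 without 1 of the other 4.

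**Figure D4:**
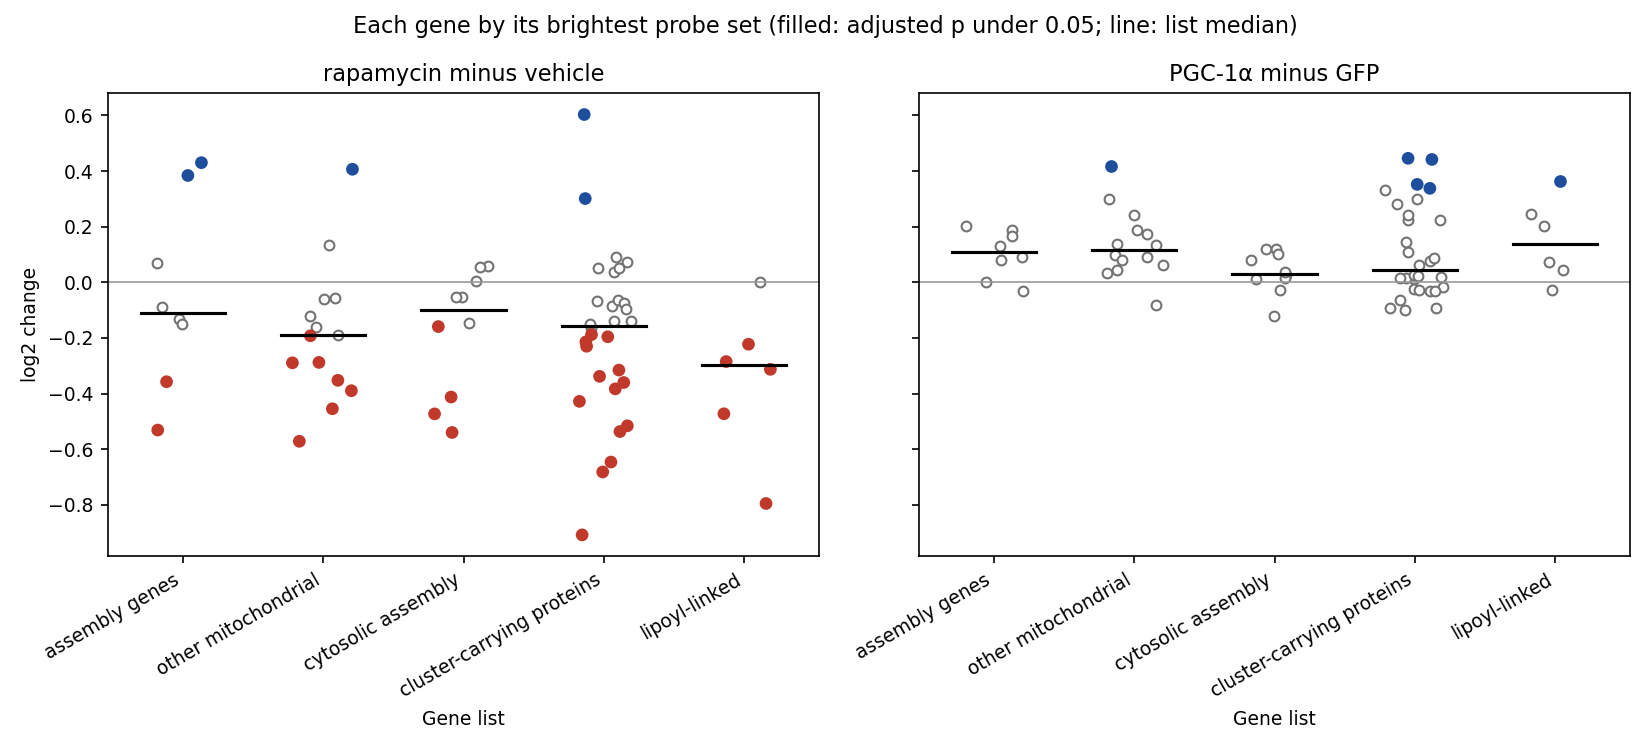
The log2 change of each gene by its brightest probe set (y axis) in the 8 assembly genes and the 4 related lists (x axis), for rapamycin (left) and PGC-1alpha (right); filled points passed an adjusted p of 0.05 and lines are list medians. On the left most filled points lie below 0, with Iscu, Hscb, Sdhaf4, Aox1 and Xdh above it; on the right all 6 filled points lie above 0 and none is an assembly gene.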

How the data were processed

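RNA of 12 arrays was read from 1 table of intensity values per probe set, which the authors deposited. Per the series design text and the submitters' processing notes, the values were made with RMA at default settings in BioConductor 1.2, in 2 batches of 6 arrays: rapamycin with vehicle, and PGC-1alpha with GFP. The sources used here do not state their scale. They run from 9.30 to 21072, were read as linear, and were turned into log2 with no pseudocount or filter. RMA equalizes the arrays of a batch, so a change in total RNA per cell would not show. No detection calls were used. Precision is limited by having 3 arrays in a group.

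The 64 control probe sets were left out. Of the other 45037, 34945 had 1 gene symbol, updated through Entrez IDs to RefSeq (GRCm38.p6) for 34741. The probe set brightest over the 12 arrays stood for each of 18193 genes. Each comparison was fitted on its 6 arrays with limma 3.58.1 in R 4.3.3 (lmFit, eBayes), two-sided, with Benjamini-Hochberg adjustment over 45037 probe sets and a threshold of 0.05. The code was tested on simulated data. Errors are moderated standard errors. "Rose" and "fell" are used for an adjusted p under the threshold. From each related list the text names up to 4 genes past the threshold with the largest change and the largest opposite one, or the 2 with the smallest p; genes without a measured probe set were not analysed here. The members and lists were chosen with earlier results of these data known. Alternatives were another normalization, spike scaling, a filter on dim probe sets, a pseudocount of 16, another probe set rule, another variance model, a fit over 12 arrays, a replicate block and each array left out.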

Additional observations from a re-analysis of the deposited data

How the results depend on the processing

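Glrx5, Lyrm4 and Iscu kept their rapamycin direction and call under all 14 alternatives (log2 change -0.72 to -0.46, -0.55 to -0.31 and 0.24 to 0.51), and Hscb under 13. The dim filter, the other variance model, the fit over 12 arrays and the replicate block leave a log2 change as it is. They could alter only the call. Under the other probe set rule each member kept its rapamycin probe set, so neither could change. With spike scaling 1 gene rose and 5 fell with rapamycin: Hscb was at 0.20, Nfs1 turned to -0.12, and Isca1 (-0.32), Isca2 (-0.34) and Nfu1 (-0.28) passed. The related genes lowered then numbered 47, and 18556 of all 45037 probe sets fell, against 6301 without it. That scaling put Hscb at 0.14 in the PGC-1alpha comparison. In the difference it put Iscu at 0.058, Hscb at -0.057 and Nfu1 at 0.45 (adjusted p = 0.030, past the threshold), with 0 negative calls. Over the whole array 16701 differences then passed upward and 418 downward, against 5385 and 3919 without that scaling. Quantile normalization over 12 arrays raised Nfs1 with rapamycin (0.15, adjusted p = 0.049) and 6 related genes, turned Nfu1 with PGC-1alpha to -0.041, and put the differences of Nfs1 at -0.091, Isca1 at 0.18 (no longer past the threshold) and Nfu1 at -0.037. With PGC-1alpha 10 related genes rose when dim probe sets were left out and 13 in the fit over 12 arrays, with 617 and 807 of all probe sets raised against 449.

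With 1 array left out, rapamycin lowered 2 to 4 members, with Isca1 at -0.18 to -0.10, Isca2 at -0.19 to -0.10 and Nfu1 at -0.16 to 0.0060. In the PGC-1alpha comparison 0 to 2 members and 1 to 18 related genes rose (113 to 1957 of all probe sets), with Isca1 at 0.11 to 0.24, Isca2 at 0.14 to 0.25, Hscb at -0.053 to 0.0024 and Nfu1 at -0.072 to 0.078. Of the differences 1 to 2 were negative calls, with Iscu at -0.36 to -0.26, Isca1 at 0.24 to 0.37, Nfs1 at -0.045 to 0.065 and Nfu1 at -0.0037 to 0.17. The cause of these moves was not tested.

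No pairing by replicate number was seen in the drug experiment, where deviations of same-numbered arrays correlated at -0.05, 0.07 and 0.00. In the virus experiment they correlated at -0.13, 0.23 and -0.01. The value of 0.23 was the highest there, before 0.21 for PGC-1alpha replicate 1 and GFP replicate 3. With 3 arrays per group these values cannot tell whether arrays were paired. With the replicate number as a block 2 members rose and 2 fell with rapamycin, 0 passed with PGC-1alpha, and no member's call changed. In all, 327 of 360 alternative values of members and 129 of 146 alternative counts kept direction and call or lay within 1.5 times the count reported. These numbers include the settings named above that could not change a direction.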
